A study of Mus musculus with 3 samples.

Results

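Bins of 1 kb that were rich in OGT reads but not enriched in TET2 reads were examined in mouse embryonic stem (ES) cells. They lay on chromosomes 1 to 19 of the mm9 assembly. A bin was taken when it held 6 or more OGT positions and 3 or fewer TET2 positions. A position is a distinct 5′ read end, counted once per start and strand and moved 100 bp towards the fragment centre. The rule was met by 1968 of 2395175 usable bins, or 0.0822%. A bin was usable when its 10 kb stretch of the chromosome held at least 1 read. The bins were thus chosen by their OGT and TET2 counts, which are given as a description and carry no test. The H2B S112GlcNAc counts, the strands, the repeated reads and the neighbouring bins were not used in the choice.

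OGT links the sugar N-acetylglucosamine (GlcNAc) to serines and threonines of nuclear and cytoplasmic proteins. TET2 oxidises 5-methylcytosine in DNA and is known to bind OGT, and H2B S112GlcNAc is the histone H2B that carries this sugar on 1 serine. Chromatin immunoprecipitation for the enzymes therefore reports where each sits on DNA, and the histone antibody reports where the product of OGT lies. The rule was set to pick bins with a high OGT count and without a high TET2 count, which need not be poor in TET2.

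The series holds 3 libraries, 1 each for TET2 (an antibody made in the submitters' laboratory), OGT (a Novus antibody) and H2B S112GlcNAc (an antibody credited in the labels to Ryoji Fujiki). All came from ES cells of strain C57BL/6, kept without feeder cells on gelatin in medium with serum and ESGRO. No genotype or treatment differed between them, and the ES cell line is not named. An input or IgG library was not used here. Identity of the cells cannot be checked against marker expression in these data. Each antibody has a single library and hence no replicates, so comparisons describe these libraries and no p-value is given. On chromosomes 1 to 19 there were 1814416 OGT, 3188332 TET2 and 3886030 H2B S112GlcNAc positions, which is 0.758, 1.33 and 1.62 per usable kb. Intervals below are exact 95% Poisson intervals unless named otherwise and cover counting error only, since PCR copies of a fragment are not separate molecules.

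The bins fell into a small set of very dense bins and a large set just over the limit. Of the 1968 bins, 49 held 20 or more OGT positions and are called blocks, and 1919 held 6 to 19 and are called weak bins. The weak bins lay mostly at the limit, since 1743 bins (88.6%) held 6 or 7 OGT positions. The blocks held 17.1% of the OGT positions of the whole set, although all 1968 bins together held only 0.826% of the OGT positions of the library. Bins with 6 or more OGT positions numbered 9725 in all (0.406% of usable bins), and 20.2% of them held 3 or fewer TET2 positions. Bins with 20 or more numbered 521 (0.0218%), and 9.40% of them did. TET2 counts of 3 or fewer are the usual state, since 92% of usable bins had them. The 1968 bins were not poor in TET2, with 1.95 positions per kb, and 1.57 in the blocks. All usable bins had 1.33, and bins with 3 or fewer TET2 and fewer than 6 OGT positions had 0.940. Among the 1968 bins, 185 held 0, 447 held 1, 614 held 2 and 722 held 3 TET2 positions. Among the blocks these numbers were 10, 14, 12 and 13.

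Values at the limits were continuous for the weak bins. There were 1382 bins at exactly 6 OGT positions, against 5254 with 5 positions and an equally low TET2 count. H2B S112GlcNAc was at 3.74 per kb (3.64 to 3.85) in the bins with 6 and at 3.27 (3.22 to 3.32) in those with 5. The first bins of each kind in chromosome order are given as examples. On chromosome 1 the bin at 5160001 to 5161000, just inside, held 6 OGT, 3 TET2 and 5 H2B S112GlcNAc positions, and that at 23263001 to 23264000 held 6, 2 and 8. The bins just outside at 4848001 to 4849000 and 5100001 to 5101000 held 5 OGT positions each, with 2 and 1 TET2 and 5 and 2 H2B S112GlcNAc positions. Across the TET2 limit, 722 bins held 3 TET2 positions and 767 held 4. On chromosome 1 the bins at 4847001 to 4848000 and 9864001 to 9865000 were left out with 6 OGT and 4 TET2 positions each, while 35904001 to 35905000 was kept with 6 and 3. Around 20 OGT positions the values were sparse. On chromosome 4 the bins at 49646001 to 49647000 and 49664001 to 49665000 were blocks with 23 positions each, and 49663001 to 49664000 remained a weak bin with 18. On chromosome 1 the bin at 171967001 to 171968000 was likewise weak with 17.

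Set against counting noise, the number of bins inside the rule was above or below the expectation depending on what was taken as the local level. With OGT and TET2 reads spread evenly over the usable genome, Poisson noise gives 315 bins inside the rule. With the OGT mean of bins that share the H2B S112GlcNAc count it gives 518, and with bins that share both the H2B S112GlcNAc and the TET2 count 651. With the mean of the surrounding 50 kb for each library it gives 1882, close to the 1968 observed, and with the surrounding 10 kb 3037. At exactly 6 positions the surrounding 10 kb gives 2048 bins and the surrounding 50 kb 1281. A mean over 10 kb rests on fewer positions and is itself noisier, and the share of this in the higher number was not tested. The local means leave out the bin in question and its direct neighbours, but include other dense bins nearby. When the 4321 bins in the top 0.1% of any library were kept out of them, which was chosen after seeing the data, the surrounding 50 kb gave 1423.

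By OGT count the comparison changed along the range. At exactly 6 positions 1382 bins were observed and 1110 were expected from the surrounding 50 kb without the rich bins. At 7 positions the numbers were 361 and 246, at 8 positions 104 and 52.8, and at 9 positions 30 and 11.1. For 10 to 19 positions 42 bins were observed and 2.93 expected, and 20 of the 42 lay beside blocks. At 20 or more positions the expectation was 3.82e-06 bins against 49 observed. Those means leave out every bin with more than 8 OGT positions, so an excess over them beyond 8 positions is partly built in. With rich bins kept in the means, the surrounding 50 kb gives 1281, 329, 98.4 and 39.5 bins at 6, 7, 8 and 9 positions. For 10 to 19 positions it gives 99.7, above the 42 observed. For 20 or more it gives 34.4 and the surrounding 10 kb 53.7, since the blocks lie beside other dense bins.

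**Figure D1:**
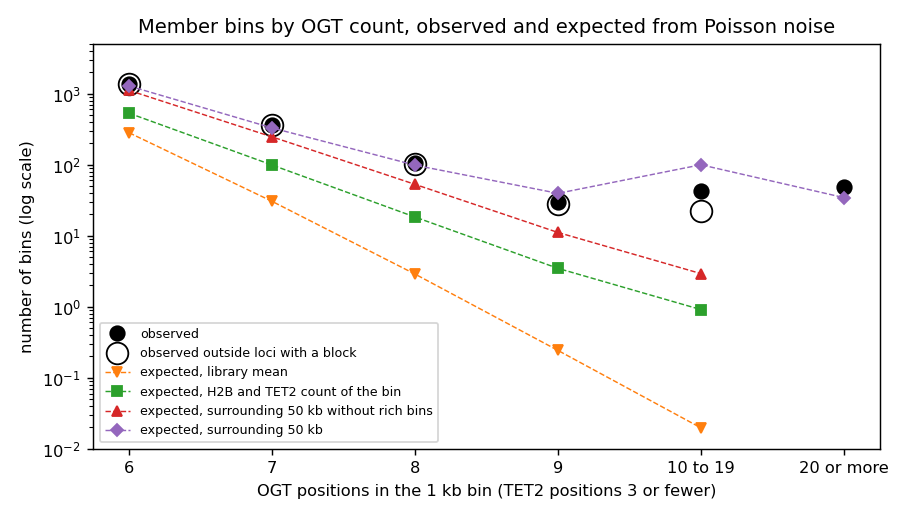
Number of 1 kb bins with 3 or fewer TET2 positions (log scale) by OGT count, as observed (filled circles), as observed outside loci with a block (open circles) and as given by Poisson noise under 4 local levels; values below the axis are not drawn. From 6 to 9 positions the observed numbers, 1382 to 30, lie near those from the surrounding 50 kb with rich bins, 1281 to 39.5. They lie above those without rich bins, 1110 to 11.1. At 20 or more only the level that includes dense bins nearby, 34.4, is on the axis beside the 49 observed.

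The same rule was turned to the other libraries with its limits scaled to their depth. For H2B S112GlcNAc over TET2, 99 bins held 13 or more H2B S112GlcNAc and 3 or fewer TET2 positions, and 0 reached 43, the scaled limit of a block. For TET2 over OGT, 977 bins held 11 or more TET2 and 1 or fewer OGT positions, and 4 reached 36. OGT over H2B S112GlcNAc, with 6 or more and 3 or fewer positions, gave 1939 bins, 37 of them with 20 or more. At these scaled limits dense bins without enrichment of a partner were counted most often for OGT. The limits were rounded up for the high library and down for the low one. Without scaling, 158 bins held 20 or more TET2 and 3 or fewer OGT positions, against 49 for OGT over TET2. The order thus depends on the limits. The weak counts do not rank the libraries, since even spread alone gives 315 bins for OGT over TET2, 303 for OGT over H2B S112GlcNAc and under 1 for each of the others.

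The 49 blocks lay close together. Joining member bins with at most 10 kb between them gave 1837 loci from the 1968 bins, and the blocks fell into 14 of these, on chromosomes 3, 4, 6, 7, 11, 14, 17 and 18. At these 14 loci the blocks were joined by 30 weak bins. Loci with more than 1 block held 91.8% of the blocks. The other 1889 weak bins, in contrast, gave 1823 loci, and 93.3% of them stood alone.

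On chromosome 11 at 87887001 to 87896000 there were 6 blocks in 9 kb with 156, 151, 55, 50, 113 and 157 OGT positions. The same bins held 3, 1, 3, 3, 3 and 1 TET2 and 4, 1, 3, 2, 7 and 4 H2B S112GlcNAc positions. This locus had the most OGT positions of all 14, 692 in its 7 member bins, against 14 for TET2 and 22 for H2B S112GlcNAc. The bin directly before it, at 87886001 to 87887000, held 333 OGT positions and was outside the rule with 6 TET2 positions.

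On chromosome 4 at 49646001 to 49669000 there were 10 blocks, the largest number at any locus, with 23 to 77 OGT positions each. Over its 13 member bins it held 469 OGT, 10 TET2 and 15 H2B S112GlcNAc positions. Each bin from 49661001 to 49669000 held 12 to 77 OGT positions, while 4 of the 23 bins in the span held no OGT position. On chromosome 7 at 134734001 to 134746000 the 7 blocks held 73, 35, 71, 56, 73, 24 and 65 OGT positions, with 1 to 3 TET2 and 2 to 6 H2B S112GlcNAc positions in each bin. Within that span the bin at 134740001 to 134741000 held 210 OGT positions but missed the rule with 5 TET2 positions.

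On chromosome 14 at 63312001 to 63336000 the 4 blocks and 6 weak bins held 240 OGT, 5 TET2 and 12 H2B S112GlcNAc positions. On chromosome 17 at 56444001 to 56458000 the 5 blocks and 2 weak bins held 205 OGT positions beside 16 for TET2 and 34 for H2B S112GlcNAc. The 4 blocks and 4 weak bins on chromosome 3 at 133129001 to 133152000 held 204, 11 and 12. All of these had far more OGT than the other libraries, and the chromosome 17 locus had the most H2B S112GlcNAc positions of the 14.

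On chromosome 18 at 7901001 to 7921000 the 2 blocks held 130 and 35 OGT positions and 0 H2B S112GlcNAc positions, with 2 and 0 for TET2. On chromosome 7 at 106396001 to 106398000 the 2 blocks touched each other, with 64 and 79 OGT, 0 and 2 TET2 and 1 and 2 H2B S112GlcNAc positions. On chromosome 3 at 90197001 to 90216000 the 3 blocks held 24, 30 and 26 OGT, 2, 1 and 2 TET2 and 8, 5 and 3 H2B S112GlcNAc positions. Over its whole span that last locus had 10.3 OGT positions per kb, against 1.54 in the 25 kb on each side.

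The loci with the fewest OGT positions held 1 or 2 blocks each. On chromosome 11 at 69402001 to 69404000 the member bins held 56 OGT, 5 TET2 and 8 H2B S112GlcNAc positions, on chromosome 17 at 37142001 to 37148000 they held 49, 5 and 4, and on chromosome 6 at 83318001 to 83326000 46, 4 and 11. The remaining loci, named here only to complete the 14, were on chromosome 6 at 83352001 to 83354000, with 31 positions for OGT, 2 for TET2 and 11 for H2B S112GlcNAc, and on chromosome 18 at 7871001 to 7872000, with 29, 1 and 0.

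**Figure D2:**
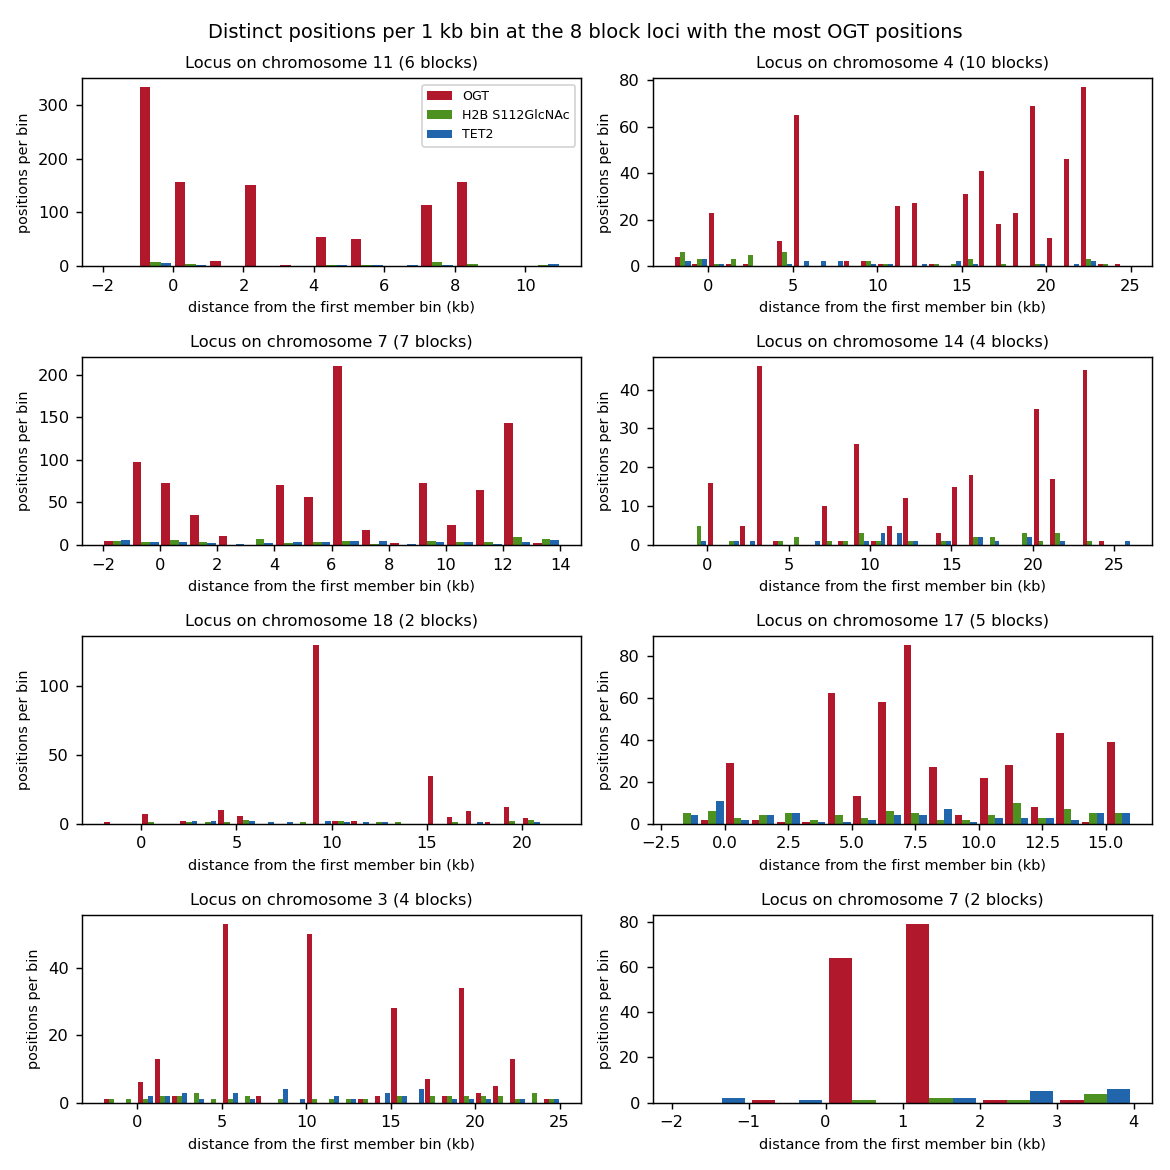
Distinct positions per 1 kb bin for OGT (red), H2B S112GlcNAc (green) and TET2 (blue) against distance from the first member bin in kb, at the 8 loci with the most OGT positions; bins outside the rule are drawn too. Dense OGT bins lie singly or side by side, with low bins between some of them. At the chromosome 4 locus blocks of 23 to 77 OGT positions hold 0 to 2 TET2 and 0 to 3 H2B S112GlcNAc positions.

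The TET2 limit cut some of these clusters. Another 14 bins with 20 or more OGT positions lay within 10 kb of a block and missed the rule, 12 of them with 4 or 5 TET2 positions. Over the whole genome, bins with 20 or more OGT positions numbered 10, 14, 12 and 13 at 0, 1, 2 and 3 TET2 positions and 9 and 8 at 4 and 5. There were 472 bins with 20 or more OGT and more than 3 TET2 positions in all.

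OGT reads in the blocks formed narrow covered runs with ends at nearly the same base on both strands. A run is a stretch covered without a break by overlapping 44 bp reads and holding at least 20 positions. There were 47 such runs at blocks, and 43 of the 49 blocks were touched by a run. Their median width was 120 bp (58 to 566), and 32 were narrower than 150 bp. They held 1257 plus-strand and 1279 minus-strand positions, where the OGT library as a whole had 52.3% on the plus strand. Over the 14 loci runs took up 7.37 kb of 165 kb and held OGT positions at 367 per kb (353 to 381), against 5.16 per kb (4.82 to 5.53) in the gaps. The loci held 54 runs of 20 or more positions and 115 of 5 or more.

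At the left end of a run, the first minus-strand read and the first plus-strand read began within 5 bp of each other in 38 of the 47 runs, and at the right end the last reads did so in 32. Both ends met this in 28 runs (59.6%). Among 57 TET2 runs outside extreme bins with 3 or fewer OGT positions, 0 met it at both ends, and among all 134 TET2 runs outside extreme bins 6 did. Extreme bins are the 836 in the top 0.1% of all 3 libraries at once, and none of the bins inside the rule is among them. In the 57 TET2 runs the minus strand began a median of 26 bp after the plus strand at the left end and ended a median of 25 bp beyond it at the right end. They were wider, with a median of 296 bp, and held reads at a median of 5.59% of their possible positions against 28.9% in the OGT runs, so the strands' ends are set less exactly there. Of the 20 OGT runs at blocks no denser than the densest of these TET2 runs, with a median of 14.3% of positions held, 8 met the limit at both ends. Sharp ends were not limited to the blocks. Away from blocks they were found at both ends in 106 of 340 OGT runs in extreme bins and in 27 of 54 runs outside them.

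The strand distance, the median 5′ end on the minus strand less that on the plus strand, was close to the read length in these runs. Over the 47 runs its median was 43 bp (exact binomial 95% interval of the median 40 to 44), and in 35 it lay within 15 bp of 43, the read length minus 1. By arithmetic, reads of both strands that begin evenly over the same interval give that value. It was 70 bp or more in 2 of the 47 OGT runs and in 41 of the 57 TET2 runs, whose median was 95 bp (77 to 105.5). The 20 sparser OGT runs had a median of 37.75 bp (22 to 45). Measured per bin, where a bin can hold several runs, the median over the 42 blocks with at least 5 positions on each strand was 46.75 bp (41.5 to 60). In the OGT runs of extreme bins the median was 42.5 bp (41.5 to 43.5), so a distance near the read length was not particular to the blocks. Nor was it particular to OGT reads, since TET2 had a median per bin of 59.5 bp (50 to 69) in bins with 20 or more OGT and over 3 TET2 positions, and 175 of 399 such bins lay within 15 bp of 43. All intervals of medians in this paragraph are exact binomial ones. They take runs or bins as independent, although many share a locus and each antibody has a single library.

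**Figure D3:**
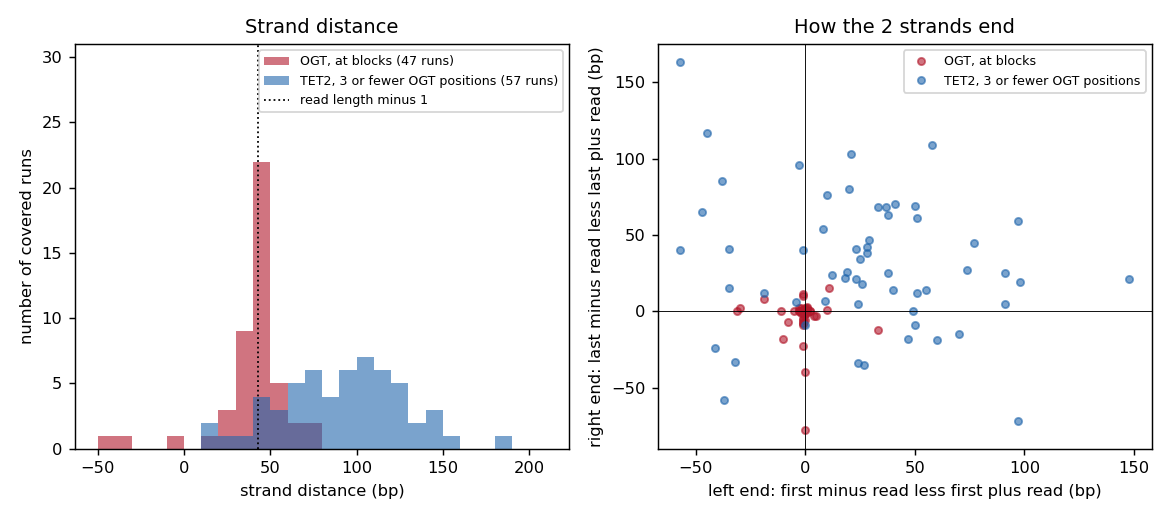
Left, number of covered runs by strand distance in bp for OGT runs at blocks (red, 47) and TET2 runs with 3 or fewer OGT positions (blue, 57), with the read length minus 1 dotted; right, offset between strands in bp at the left and right end of each run. The OGT runs gather at 43 bp and near 0 at both ends, and the TET2 runs spread around 95 bp with most offsets above 0.

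Repeated reads were more frequent in the blocks than in the weak bins, and 1 locus carried much of this. Blocks held 5967 OGT reads at 2565 positions, or 2.33 reads per position, against 1.08 in the weak bins outside block loci and 1.16 over all usable bins. Repeats were not particular to the blocks. Bins with 6 or more OGT and over 3 TET2 positions, a set that includes the extreme bins, had 2.84. The chromosome 7 locus at 134734001 held 2548 reads at 408 positions, 6.25 per position, and without it the blocks had 1.59. At the other 13 loci the value ran from 1.10 to 2.23. TET2 and H2B S112GlcNAc reads in the same blocks were hardly repeated, with 1.03 and 1.09 reads per position.

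A narrow run has few possible starts, so even a random draw repeats some of them. In the median run 28.9% of the possible starts were taken (7.19 to 95.8). Reads drawn evenly over the possible starts would give a median of 1.18 reads per position, against 1.36 observed, and 43 of the 47 runs lay above their own value. OGT runs away from blocks had higher medians, at 2.37 against 1.67 for an even draw in the 54 outside extreme bins. In the 340 in extreme bins the medians were 2.03 and 1.44. Among the runs at blocks the largest values were at the chromosome 7 locus. There the run at 134738163 to 134738254 held 857 reads at 71 positions, 12.1 per position against 8.75 for an even draw. In the same locus the run at 134734038 to 134734116 had 69 of 72 possible positions taken, with 8.30 reads per position against 7.96.

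**Figure D4:**
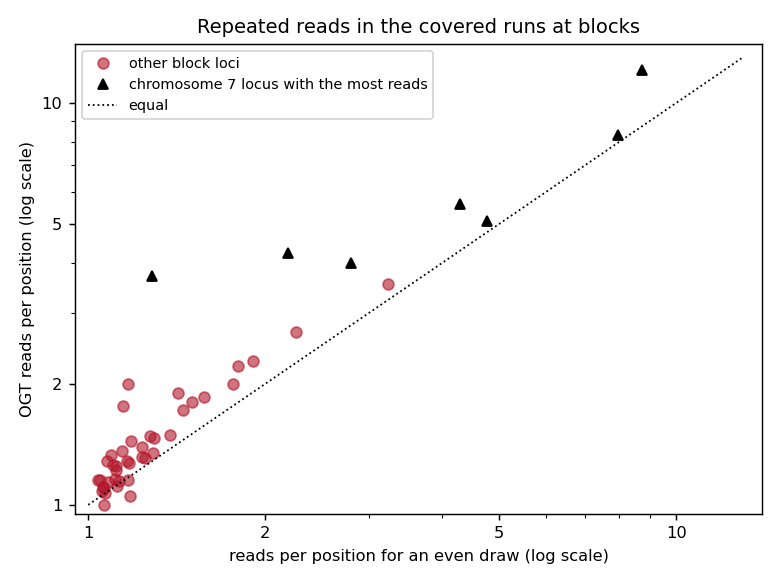
OGT reads per position in each of the 47 covered runs at blocks against the value for the same number of reads drawn evenly over the possible starts, both on log scales; the dotted line marks equality. Most runs, 43 of 47, lie above the line, and runs of the chromosome 7 locus (triangles) reach 12.1 reads per position.

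H2B S112GlcNAc, which the rule did not use, was 1.31-fold over its surroundings in the blocks, and less dense there than in the weak bins. The 49 blocks held 0 to 10 H2B S112GlcNAc positions with a median of 3, and 11 of them (22.4%) held 0, against 29.7% of all usable bins. Their density was 2.80 per kb (2.35 to 3.31), against 2.13 per kb in the surrounding 50 kb without rich bins and 1.62 over all bins. TET2 was at 1.57 per kb (1.24 to 1.96) against 1.86 in the surroundings, with its upper values removed by the rule. Bins with fewer than 6 OGT positions and the same TET2 counts held 1.67 H2B S112GlcNAc positions per kb, and the ratio to them was 1.67 (1.41 to 1.98). OGT in the blocks was 46.0-fold over its surroundings without rich bins and 6.19-fold with them, as blocks neighbour each other. For H2B S112GlcNAc these values were 1.31 and 1.25. In the weak bins away from blocks H2B S112GlcNAc was 1.44-fold over surroundings of 2.74 per kb without rich bins. Blocks and weak bins thus differed less against their surroundings than in density.

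Locus by locus, the H2B S112GlcNAc density of the whole span was above that of the 25 kb on each side at 8 of the 14 loci and its interval held the flanking mean at 13. The exception was the chromosome 6 locus at 83352001, with 5.5 per kb (2.75 to 9.84) from 11 positions against 2.22 in its flanks. At the chromosome 4 locus the values were 1.22 (0.809 to 1.76) and 1.28, and at the chromosome 11 locus at 87887001 2.56 (1.62 to 3.83) and 2.29. At the chromosome 7 locus at 134734001 they were 3.33 (2.38 to 4.54) and 2.75. The OGT densities of the 3 spans, in the same order, were 20.7, 77.1 and 53.2 per kb.

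Pooled over the block loci, the other libraries were denser inside the covered runs than in the gaps, at a small fraction of the OGT density. H2B S112GlcNAc reads lay at 7.33 per kb (5.51 to 9.56, 54 positions) inside runs and 1.83 per kb (1.63 to 2.06) in the gaps of the same loci. TET2 reads lay at 3.26 per kb (2.09 to 4.85, 24 positions) inside and 1.59 (1.4 to 1.80) outside. The intervals take positions as independent, although they lay unevenly over the runs. Among the runs at blocks, that on chromosome 7 at 134745975 to 134746154 held 9 H2B S112GlcNAc positions. Each run on chromosome 18 held 0, so the pooled density does not describe every locus. The pooled runs include those in bins that missed the rule with more than 3 TET2 positions.

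The neighbours of blocks were rich in OGT as well. At 1 kb to each side the OGT density was 26.2 per kb and at 5 kb 25.1 per kb, with 20.0 to 24.3 between, which includes other blocks of the same locus. TET2 in these neighbours was 1.73 to 2.24 per kb and H2B S112GlcNAc 2.12 to 2.41 per kb. The intervals of TET2 at 1 to 5 kb overlapped each other, and so did those of H2B S112GlcNAc. A bin lying near more than 1 block was counted once for each, so the neighbouring bins are not all distinct.

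The 1889 weak bins away from blocks had another profile. Each held few reads in all libraries, with 6 to 18 OGT positions and a median of 6, 0 to 3 TET2 positions with a median of 2, and 0 to 17 H2B S112GlcNAc positions with a median of 4. They lay in read-rich surroundings, and 73.3% of them were in the 25% of usable bins with the highest OGT density in the surrounding 50 kb. In that 50 kb, without rich bins, OGT was at 1.28, TET2 at 2.33 and H2B S112GlcNAc at 2.74 per kb, against 0.728, 1.29 and 1.58 around all usable bins. At 1 kb to each side OGT was at 1.49 per kb (1.45 to 1.53), and at 2 to 5 kb it was 1.34 to 1.35.

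H2B S112GlcNAc was higher in the weak bins than around them. Their density was 3.94 per kb (3.85 to 4.03), 1.44-fold over the surrounding 50 kb, and at 1 and 5 kb to each side it was 3.13 (3.07 to 3.18) and 2.84 (2.79 to 2.90) per kb. At least 6 H2B S112GlcNAc positions were found in 428 of the 1889 bins (22.7%), against 1.7% of bins with 3 or fewer TET2 positions and 3.2% of all bins. In the blocks it was 7 of 49 (14.3%). Read against bins of fewer than 6 OGT positions with the same TET2 counts, at 1.84 per kb, the ratio was 2.15 (2.10 to 2.20). Over all 1919 weak bins it was higher at every TET2 count, with 3.17 per kb (2.91 to 3.44) at 0 TET2 positions against 1.04, and 4.39 (4.24 to 4.55) at 3 against 2.27. Part of this goes with the richer surroundings of weak bins, whose share was not tested. The TET2 density next to these bins, at 1 kb, was 2.71 per kb (2.66 to 2.76), above the 1.98 per kb in the bins, where the rule removed the higher counts.

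Across bins with 3 or fewer TET2 positions the H2B S112GlcNAc level was higher at each OGT count up to 9 and lower where OGT was densest. It was 1.15 per kb at 0 OGT positions, 1.96 at 2, 2.82 at 4, 3.74 (3.64 to 3.85) at 6, 4.33 (4.12 to 4.55) at 7, 4.47 (4.07 to 4.90) at 8 and 4.73 (3.99 to 5.58) at 9. For 10 to 19 positions it was 3.57 (3.02 to 4.19) and for the blocks 2.80. The surrounding level moved along with it, from 1.34 at 0 OGT positions to 2.92 at 9, and was 2.13 around the blocks. From 7 to 9 positions the intervals overlap. The blocks held 0.710 times (exact binomial interval 0.595 to 0.841) the H2B S112GlcNAc density of the weak bins away from them. The 30 weak bins beside blocks held 0.449 times that density (0.336 to 0.588), at 1.77 per kb (1.32 to 2.31). The surroundings without rich bins differed too, at 2.13 per kb for the blocks and 2.74 for the weak bins away from them. These intervals take bins as independent, although the density in the blocks ran from 0 to 9 per kb by locus.

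**Figure D5:**
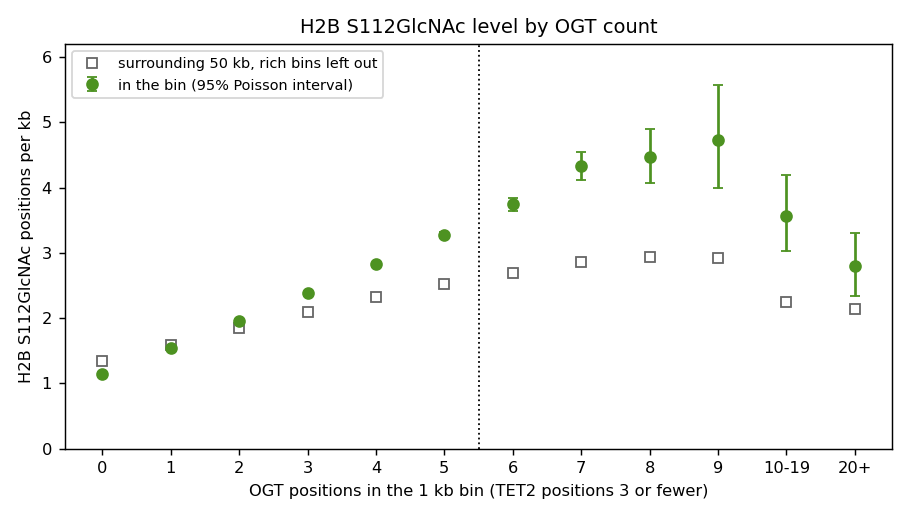
H2B S112GlcNAc positions per kb with 95% Poisson intervals (filled circles) and the level in the surrounding 50 kb without rich bins (open squares) by OGT count of the bin, for bins with 3 or fewer TET2 positions; the dotted line marks the limit of 6. The level is 1.15 per kb at 0 and 4.73 per kb at 9 OGT positions, and 2.80 per kb in bins with 20 or more.

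The strands of the weak bins away from blocks were less sharply set. Over all pairs of a minus-strand and a plus-strand OGT end in the same bin, 44.1 pairs per bp lay at distances of 33 to 53 bp and 18 per bp at 100 to 200 bp, a ratio of 2.45. Bins with 4 or 5 OGT positions and 3 or fewer TET2 positions had a ratio of 1.38. The blocks had 4.75. Bins with more positions give more pairs, so the few weak bins with 10 to 19 positions weigh more per bin than those with 6. The ratio was not split by OGT count. For H2B S112GlcNAc reads in the weak bins the ratio was 1.39, and 1.23 in the bins with 4 or 5 OGT positions. The median ends pooled over all 1919 weak bins were 189 bp apart, but reads spread evenly over a bin would give 200 bp, because ends were moved by 100 bp before binning, and over all usable bins the value was 200 bp.

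The reads of most weak bins were scattered. In bins with 6 OGT positions the largest covered run held a median of 2, and in 32.7% of the 1379 such bins away from blocks it held at least 50% of the positions. In the 22 bins with 10 to 19 positions the median was 9, and 13 had at least 50% in 1 run. Among the 30 weak bins beside blocks 29 did, like 45 of the 49 blocks. The 22 bins thus hold a mixture. On chromosome 1 at 171967001 to 171968000 all 17 OGT positions lay in 1 run with a strand distance of 41.5 bp, beside 3 TET2 and 4 H2B S112GlcNAc positions, and on chromosome 18 at 55782001 to 55783000 15 of 18 did, with 45 bp. On chromosome 4 at 132766001 to 132767000 the largest run held 2 of 10 OGT positions, with 1 TET2 and 13 H2B S112GlcNAc positions. These examples were chosen after their values were seen.

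The weak bins without any TET2 position that held the most OGT positions stood mostly beside blocks. The first 6 were 49663001 to 49664000 on chromosome 4 with 18 OGT positions, 63312001 to 63313000 and 63327001 to 63328000 on chromosome 14 with 16 and 15, 49666001 to 49667000 on chromosome 4 and 7920001 to 7921000 on chromosome 18 with 12 each, and 87888001 to 87889000 on chromosome 11 with 10. H2B S112GlcNAc was at 0 to 2 positions in these 6 bins, all beside blocks. The last was 1 of 4 bins tied at 10 OGT positions, and of these the bin on chromosome 16 at 23160001 to 23161000, with 4 H2B S112GlcNAc positions, lay away from any block.

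Weak bins formed few loci. Those with the most member bins were on chromosome 12 at 109764001 to 109777000, with 4 bins and 25 positions for OGT, 11 for TET2 and 20 for H2B S112GlcNAc, and on chromosome 3 at 88019001 to 88039000, with 4 bins and 25, 7 and 13. On chromosome 2 at 152150001 to 152165000 there were 3 bins with 21, 8 and 18 positions. The next had 2 bins each, on chromosome 4 at 132766001 to 132778000 with 18, 1 and 18 positions, on chromosome 10 at 90272001 to 90280000 with 15, 6 and 5, and on chromosome 4 at 146713001 to 146721000 with 15, 5 and 14. None of their bins held over 10 OGT positions.

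At a larger scale the weak bins gathered where all 3 libraries were dense. Windows of 10 Mb held a median of 5 weak bins away from blocks (0 to 70 over 246 windows). The 3 richest windows were on chromosome 12, from 100000001 to 110000000 with 70 bins, from 80000001 to 90000000 with 47 and from 110000001 to 120000000 with 40. In the first, OGT was at 1.73, TET2 at 3.03 and H2B S112GlcNAc at 3.77 positions per kb without rich bins, where the median window had 0.675, 1.17 and 1.47. The numbers expected in these windows from Poisson noise around the surrounding 50 kb were 64.5, 54 and 55.2. Over the windows the number of weak bins and the OGT density had a Pearson correlation of 0.873, given as a description, since the same reads enter both. By chromosome the weak bins ran from 4.11 per 10 Mb on chromosome 18 to 16.0 on chromosome 12.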

How the data were processed

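The authors deposited 1 list of aligned reads per library, with read start, end, strand and a score that was the same in every line and was not used. CASAVA 1.4, Bowtie 0.12.2 and the build mm9 are named, without roles, per the submitters' processing notes. The sources used here do not say how repeated reads or reads with several matches were treated. The other columns, start and end of each read as deposited by the authors, were turned into counts here.

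Reads at 1 start and strand were counted once and binned after a shift of 100 bp. The OGT library had 2179445 reads, TET2 3832237 and H2B S112GlcNAc 4647963, and repeats were 13.7% to 14.2% of reads on chromosomes 1 to 19. The members and lists were chosen with earlier results of these data known. Expected numbers are sums of Poisson probabilities over bins. The local mean leaves out the bin and 1 neighbour on each side. Named regions are the 12 block loci with the most OGT positions, the 6 weak loci with the most bins, the 6 weak bins with the most OGT and 0 TET2 positions, and bins at the limits. Other regions given were picked after their values were seen. Computation used Python 3.11.15, numpy 2.4.6 and scipy 1.17.1 and were tested on simulated data. Gene annotation and genome sequence of mm9 were not used here, so no gene or sequence is given.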

Additional observations from a re-analysis of the deposited data

Results flagged for a closer look

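Chromosome X lay outside the rule and entered no comparison above. There 35 of 162363 usable bins held 6 or more OGT and 3 or fewer TET2 positions, and 1 of them held 56 OGT positions. The 35 bins are 2.16 per 10 Mb against 8.22 on chromosomes 1 to 19, with OGT at 0.389 positions per kb on X and 0.758 on the others. A number expected from counting noise is not given for X, so its count is a description only. No input library was used here to set the level of a control.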

How the results depend on the processing

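No paired analysis was possible because there is a single library for each antibody. Of 64 values under an alternative, 40 stayed within 1.5 times (counts), the 95% interval (densities, medians and ratios) or 22 bp (the pooled strand distance), and 24 moved. A change of sign was not assessed. By construction 9 of the 40 could not move (extreme bins left out, all bins in place of usable ones, and OGT minimums of 5 and 8 for blocks), so 31 of 55 that could move did not. Of the 64, 8 were chosen after seeing the data: rich bins kept out of the means, means by both H2B S112GlcNAc and TET2 count, covered runs, all bins in place of usable ones, and the pairs of values without the locus with the most reads or without weak bins beside blocks. The number of bins, 1968, became 3981 with every read counted, 1246 and 632 with at most 2 and 1 TET2 positions, 4097 with TET2 drawn down to the OGT depth, 7222 with at least 5 and 225 with at least 8 OGT positions. The number of blocks, 49, became 24 with at most 1 TET2 position and stayed between 33 and 65 otherwise. H2B S112GlcNAc density at blocks, 2.80 per kb, became 2.31 and 1.71 with at most 2 and 1 TET2 positions and 3.45 with TET2 drawn down. At weak bins, 3.90 per kb over all 1919, it became 3.73 with every read counted, 3.81 with bins begun 500 bp later, 3.62 and 3.32 with at most 2 and 1 TET2 positions, 4.97 with TET2 drawn down, and 3.44 and 4.30 with at least 5 and 8 OGT positions. Reads per position at blocks, 2.33, became 2.51 for blocks of at least 30 positions and 1.59 without the chromosome 7 locus with the most reads. The pooled strand distance of weak bins, 189 bp, became 135 bp as a median over bins. The number expected from noise, 1882, became 3037 with the surrounding 10 kb, 315 with the library mean, and 518 and 651 with the means by H2B S112GlcNAc count alone and with TET2. Changed limits alter counts by construction, and for the other changes the cause was not tested. Annotation of the bins was not run. Depth limits what single weak bins show, since they hold few positions per strand.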
